A study of Mus musculus with 6 samples.

Results

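The 10 genes described here encode 7 matrix metalloproteinases (MMPs: Mmp2, Mmp3, Mmp10, Mmp11, Mmp13, Mmp14 and Mmp19) and 3 tissue inhibitors of metalloproteinases (TIMPs: Timp1, Timp2 and Timp3). They were named as a list by gene symbol, with earlier results of these data known. All 10 were found among the 43629 genes of the deposited tables and passed the filter on low counts. RNA was sequenced from primary dermal fibroblasts of newborn mouse skin at passage 1, after 6 days in culture. All 6 libraries came from mice on a mixed background (50% C57Bl/6, 50% FVB/N) that carried Col1a2Cre, which expresses Cre recombinase in fibroblasts. The 3 ctrl libraries had Cre only (genotype Col1a2Cre-wt), and the 3 caNrf2 libraries had Cre together with a constitutively active mutant of Nrf2 (genotype Col1a2Cre-caNrf2). Nrf2, the product of Nfe2l2, is a transcription factor that switches on genes for antioxidant defence and detoxification.

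MMPs are zinc-dependent proteases that cut collagens and other proteins of the extracellular matrix. Most are secreted as inactive proenzymes, and a few, such as Mmp14, are anchored in the cell membrane. TIMPs bind the active site and block it. In skin, fibroblasts make much of both sets, and their balance bears on matrix turnover in wound repair and ageing.

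Nfe2l2 was higher in every caNrf2 library (352, 429.9 and 358 CPM, expected counts scaled to the library total) than in any ctrl library (113, 103 and 112 CPM). The labels give the genotype and not this level. What part of the Nfe2l2 reads came from the mutant was not tested. Each library held 30168400 to 45164208 expected counts in all. Of 15341 genes tested with edgeR's quasi-likelihood test, 3302 passed an adjusted p of 0.05, 12.5% higher and 9.03% lower in caNrf2 (21.5% in all), and are said here to be called. Of the 10 fibroblast markers, all were detected in each library, with 2 called higher (Pdgfra and Thy1) and 3 lower. They summed to 33332 to 45450 CPM in ctrl and 27759 to 30743 CPM in caNrf2. Most of that sum came from 2 collagen genes that were called lower. Col1a1 had means of 17603 and 11967 CPM in ctrl and caNrf2, and Col1a2 had 13544 and 8355 CPM. The call of Col1a1 was lost in most fits with a single library left out (see the closing section). Macrophage and leukocyte markers summed to 23.3 to 64.3 CPM in ctrl and 161 to 194 CPM in caNrf2 (14 of 15 tested called higher, with Cd3e and Cpa3 at 0 in all 6 libraries). Skeletal muscle markers summed to 177 to 195 and 263 to 344 CPM (11 of 14 called higher). Keratinocyte markers summed to 229 to 350.2 and 342 to 548 CPM (2 of 11 higher), endothelial and pericyte markers to 15.6 to 18.4 and 14.8 to 17.3 CPM (1 higher and 1 lower of 10), melanocyte and Schwann cell markers to 31.8 to 45.6 and 45.1 to 51.6 CPM (2 of 9 higher), and cartilage and bone markers to 18.8 to 24.5 and 29.4 to 34.6 CPM (2 higher and 1 lower of 7). Within the cartilage and bone sum, Col10a1 alone went from a mean of 0.387 to 9.07 CPM. The median log2 fold change of that list was -0.16, with 3 of 7 positive. What part all these other cell types have in the values below was not tested.

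Among the 10 genes, Timp1 rose, Timp3 and Mmp14 fell, and 7 were not called. One higher call among 10 stands beside 12.5% of all genes, and 2 lower calls beside 9.03%. These counts are from the fit without a replicate block. With the replicate number as a block, 1 of the 10 was called higher (12.3% of all genes) and 5 lower (8.67%), Mmp2, Mmp3 and Mmp11 being added. The median log2 fold change (caNrf2 over ctrl) was -0.28 for the 10 genes and -0.003 for all genes tested. The groups did not overlap in 7 of the 10 genes, where 42.1% of all tested genes showed no overlap. In RNA from whole cultures, fewer cells that express a gene and less RNA per cell cannot be told apart.

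**Figure D1:**
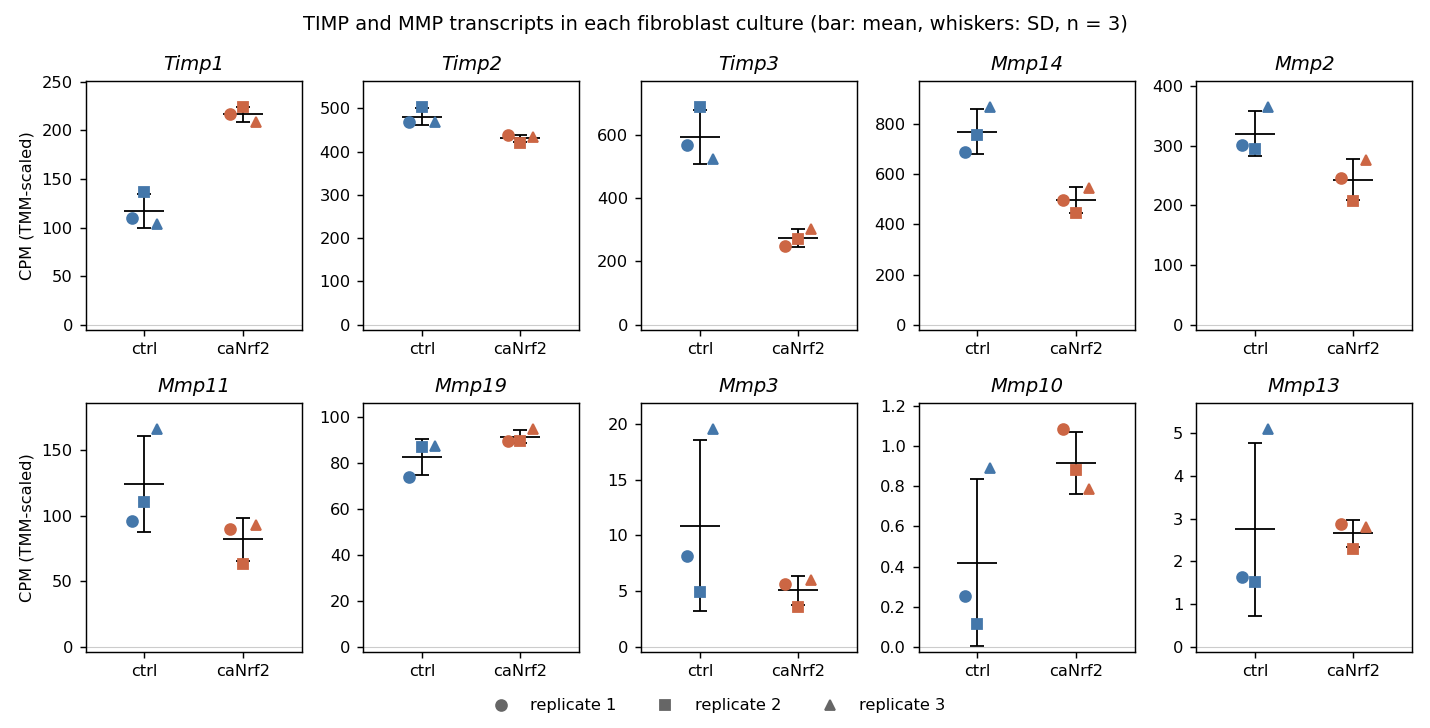
CPM of each TIMP and MMP gene in the 3 ctrl and 3 caNrf2 cultures, with 1 marker per library (shape: replicate number), a bar at the group mean and whiskers of 1 SD; each panel has its own axis starting at 0. Timp1 lies between 209 and 224 CPM in caNrf2 and at most at 137 CPM in ctrl, Timp3 and Mmp14 lie lower in every caNrf2 library, and ctrl replicate 3 is the highest ctrl library in each of the 7 MMP panels.

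Of the 3 inhibitors, Timp1 rose, Timp3 fell and Timp2 was not called. Timp1 (ENSMUSG00000001131, chromosome X, 20870166 to 20874735, GRCm38, plus strand) encodes a secreted inhibitor of most MMPs that is inducible in many cell types. It stood at 109.6, 137 and 104 CPM in ctrl replicates 1 to 3 and at 217, 224 and 209 CPM in caNrf2 replicates 1 to 3. No ctrl library reached the lowest caNrf2 library, and the spread within caNrf2 was narrow. Mean Timp1 went from 117 ± 17.5 to 216 ± 7.77 CPM (SD, n = 3 per group), a 1.85-fold rise (log2 fold change 0.89, SE 0.11, edgeR adjusted p = 0.000689).

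Timp3 (ENSMUSG00000020044, chromosome 10, 86300372 to 86349506, plus strand) encodes the TIMP that is held in the extracellular matrix and that also blocks ADAM and ADAMTS proteases. Its level was 568, 688 and 525 CPM in ctrl and 248, 269.6 and 304 CPM in caNrf2. The highest caNrf2 library lay well below the lowest ctrl library. Timp3 fell from 593 ± 84.4 to 274 ± 28.4 CPM (SD, n = 3 each), or to 0.461-fold (log2 fold change -1.12, SE 0.12, edgeR adjusted p = 0.000377).

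Timp2 (ENSMUSG00000017466, chromosome 11, 118301069 to 118355740, minus strand) encodes the inhibitor that also links pro-Mmp2 to Mmp14 at the cell surface. It was at 469, 502 and 469 CPM in ctrl and at 438, 421 and 433 CPM in caNrf2. The groups did not overlap, but they lay close together, at 480.3 ± 19.2 and 430.3 ± 8.71 CPM (SD, n = 3 each). The change of -0.16 on the log2 scale (SE 0.08) was not called (edgeR adjusted p = 0.185).

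Timp1 and Timp3 both lie within the spans of synapsin genes on the opposite strand, and the strand setting of the counting is not given in the sources used here. Syn1, the host of Timp1, shares no exon base with it in GENCODE M21. Syn1 held 73 to 127 counts in ctrl and 248 to 331 in caNrf2 libraries, 2.08% to 3.33% of the Timp1 counts, and was called higher (log2 fold change 1.43, SE 0.15, edgeR adjusted p = 0.000277). Syn3, the host of Timp3, shares 1733 exon bases with it. It held 27 to 58 counts in ctrl and 6 to 11 in caNrf2 libraries, at most 0.288% of the Timp3 counts, and was called lower (log2 fold change -2.53, SE 0.39, edgeR adjusted p = 0.00219). How many reads of Syn3 could have been counted for Timp3 was not tested. Cep295nl, on the same strand as Timp2 and with no shared exon base, held at most 0.3% of the Timp2 counts.

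Per length, in TPM (the deposited unit that corrects for transcript length), the ranges of the TIMP sum overlapped between the groups while those of its Timp1 and Timp3 shares did not. The 3 TIMPs summed to 826, 961 and 797 TPM in ctrl and 844, 938 and 912 TPM in caNrf2, so the groups overlapped. Timp1 made up 33.0%, 35.7% and 32.8% of that sum in ctrl and 57.9%, 59.3% and 56.5% in caNrf2. Timp3 made up 27.3%, 28.7% and 26.3% in ctrl and 10.6%, 11.4% and 13.1% in caNrf2. Timp2 held 35.7% to 40.9% in ctrl and 29.2% to 31.5% in caNrf2. Timp1 was the most abundant TIMP in each caNrf2 library, and in ctrl Timp2 was, except in replicate 2, where Timp1 and Timp2 stood level. Shares and sums over the chosen genes are given as descriptions, with no test.

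**Figure D2:**
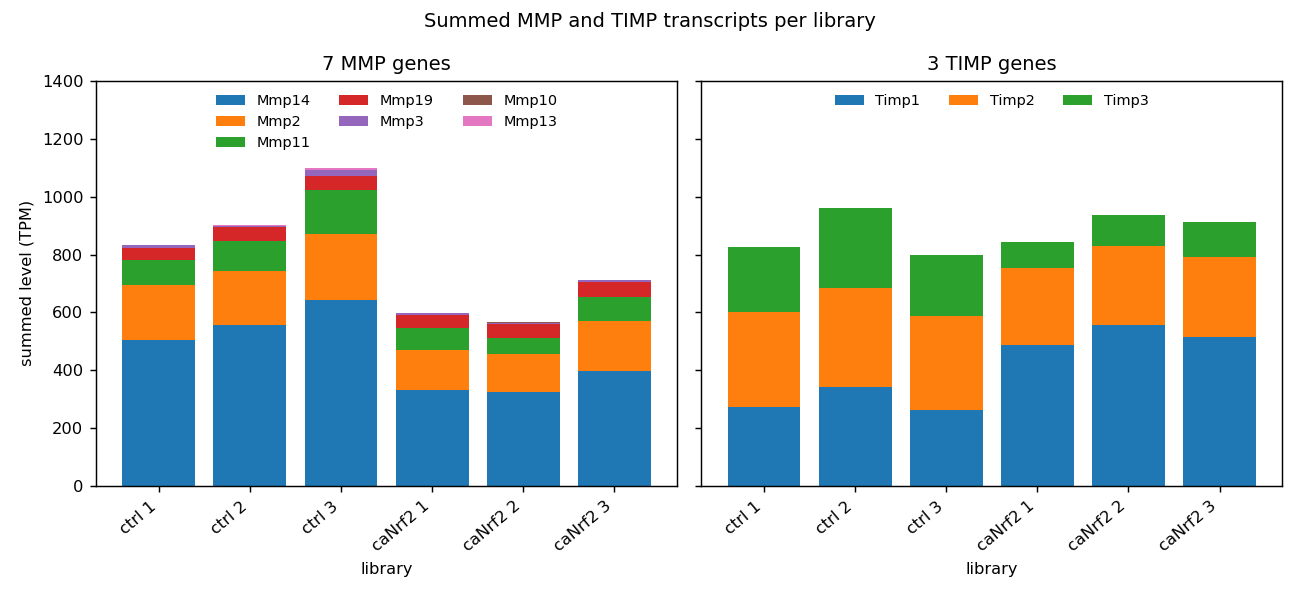
Stacked TPM of the 7 MMP genes (left) and the 3 TIMP genes (right) in each of the 6 libraries, on 1 shared axis from 0. The MMP stacks reach 833 to 1098 TPM in the ctrl libraries but 567 to 713 TPM in the caNrf2 ones, whereas the TIMP stacks reach 797 to 961 and 844 to 938 TPM, with more Timp1 and less Timp3 in the caNrf2 stacks.

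The forms of Timp1 had overlapping shares in the groups. Its main form, ENSMUST00000009530, held 72.0% ± 2.5 of the Timp1 TPM in ctrl and 70.0% ± 3.07 in caNrf2 (SD, n = 3 each), and the ranges overlapped. ENSMUST00000020234 carried nearly all of the Timp3 TPM, 99.3% ± 0.123 in ctrl and 99.1% ± 0.404 in caNrf2. For Timp2 the full-length form ENSMUST00000017610 (3709 bases) held 67.1% to 69.9% in ctrl and 71.1% to 74.3% in caNrf2, and the short form ENSMUST00000155707 (718 bases) held the rest. Those Timp2 ranges did not overlap. RSEM divides reads among forms by estimation, so the shares are estimates, and they were not tested.

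Mmp14 (ENSMUSG00000000957, chromosome 14, 54431604 to 54441258, plus strand) encodes the membrane-type protease MT1-MMP, which cuts fibrillar collagen at the cell surface and activates pro-Mmp2. It was the most abundant MMP here in all 6 libraries. Its level was 688, 754 and 866 CPM in ctrl and 496, 445 and 546 CPM in caNrf2. The groups were clearly apart. Mmp14 fell from 769 ± 90.2 to 496 ± 50.9 CPM (SD, n = 3 each), or to 0.644-fold (log2 fold change -0.63, SE 0.12, edgeR adjusted p = 0.00521).

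Mmp2 (ENSMUSG00000031740, chromosome 8, 92827328 to 92853417, plus strand) encodes gelatinase A, which digests denatured collagen and type IV collagen. It was at 302, 295 and 365 CPM in ctrl and at 246, 208 and 276 CPM in caNrf2. Every caNrf2 library was below every ctrl library, with ctrl replicate 2 and caNrf2 replicate 3 close to each other. The group values were 321 ± 38.5 and 243 ± 33.9 CPM (SD, n = 3 each). The log2 fold change of -0.40 (SE 0.13) missed the threshold (edgeR adjusted p = 0.0552). Of its 16 alternatives, 7 passed the threshold (adjusted p 0.0117 to 0.176 over all 16). They included the replicate number as a block (log2 fold change -0.40, edgeR adjusted p = 0.0142). The others used upper-quartile factors, total counts, no filter, DESeq2 or limma-voom, or left out caNrf2 replicate 3. With 1 library left out, 1 of 6 fits passed.

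Mmp11 (ENSMUSG00000000901, chromosome 10, 75923222 to 75932502, minus strand) encodes stromelysin-3, which furin-like proteases activate inside the cell. Its level was 96.4, 111 and 166 CPM in ctrl and 90.0, 63.3 and 93.4 CPM in caNrf2. The groups did not overlap, though ctrl replicate 1 and caNrf2 replicates 1 and 3 were close, and ctrl replicate 3 stood above the rest. The change from 124 ± 36.8 to 82.2 ± 16.5 CPM (SD, n = 3 each) was -0.60 on the log2 scale (SE 0.21) and was not called (edgeR adjusted p = 0.0764). With the replicate block it was called (log2 fold change -0.58, adjusted p = 0.0391, over its 16 alternatives 0.0126 to 0.22), and without ctrl replicate 3 it came to -0.34 (adjusted p = 0.22). The main form of Mmp11, ENSMUST00000000924, held 83.0% ± 1.61 of its TPM in ctrl and 84.8% ± 2.83 in caNrf2.

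Mmp19 (ENSMUSG00000025355, chromosome 10, 128790953 to 128800824, plus strand) encodes a secreted MMP that cleaves basement membrane proteins. It was at 73.7, 86.7 and 87.1 CPM in ctrl and at 89.6, 89.6 and 94.5 CPM in caNrf2. The groups lay next to each other without overlap, at 82.5 ± 7.65 and 91.2 ± 2.83 CPM (SD, n = 3 each). The log2 fold change was 0.15 (SE 0.08, edgeR adjusted p = 0.254). It shares 789 exon bases with Tmem198b on the opposite strand, whose counts were 37.5% to 48.6% of those of Mmp19 (log2 fold change of Tmem198b 0.03, not called), so the level of Mmp19 is uncertain.

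Mmp3, Mmp10 and Mmp13 lie in the cluster of MMP genes on chromosome 9, whose 10 members span 7272514 to 7699585. Mmp3 (ENSMUSG00000043613, 7445822 to 7455972, plus strand) and Mmp10 (ENSMUSG00000047562, 7502352 to 7510238, plus strand) encode stromelysins 1 and 2, which cut many matrix proteins and activate other MMPs. Mmp13 (ENSMUSG00000050578, 7272514 to 7283333, plus strand) encodes the main interstitial collagenase of the mouse. RefSeq (GRCm38.p6) gave a promoter window, 250 bases before to 50 after the start, for 8 of the 10 genes, and these 3 are the ones whose window holds the AP-1 letters TGANTCA. They are printed here to show these shared letters. Each line runs from 100 bases before to 50 after the RefSeq start, on the plus strand, with the match in capitals: chr9:7445722-7445871 for Mmp3, chr9:7502242-7502391 for Mmp10 and chr9:7272414-7272563 for Mmp13.
Mmp3: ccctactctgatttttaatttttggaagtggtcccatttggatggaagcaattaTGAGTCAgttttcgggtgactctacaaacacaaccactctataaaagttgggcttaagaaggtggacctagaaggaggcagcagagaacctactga
Mmp10: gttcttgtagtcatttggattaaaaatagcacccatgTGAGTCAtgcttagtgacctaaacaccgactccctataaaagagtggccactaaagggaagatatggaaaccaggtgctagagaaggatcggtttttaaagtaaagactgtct
Mmp13: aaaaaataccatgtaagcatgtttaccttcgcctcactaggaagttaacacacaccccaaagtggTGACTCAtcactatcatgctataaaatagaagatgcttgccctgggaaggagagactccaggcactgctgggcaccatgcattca

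The match began 46 bases before the start in Mmp3, 63 in Mmp10 and 35 in Mmp13, and all 3 windows also held TATAAA. The AP-1 letters read the same on both strands and were found in 7.81% of the 32851 promoter windows of this length. The TATA letters, searched on either strand, cannot overlap them and were found in 13.6%. In the MMP and TIMP families, 8 of 10 chromosome 9 genes had a window with the AP-1 letters, against 0 of the other 12 genes with a window in the table. One further motif, which can overlap the AP-1 letters, was searched. The core letters of the antioxidant response element to which Nrf2 binds (TGACNNNGC, either strand), present in 12.4% of all windows, stood in that of Timp2 alone among the 8 of the 10 genes with a window. Windows for Mmp2 and Mmp19 were not used here. These matches describe the letters only.

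Mmp3 was at 8.15, 4.89 and 19.5 CPM in ctrl and at 5.63, 3.56 and 6.01 CPM in caNrf2. The groups overlapped, and ctrl replicate 3 stood far above the other 5 libraries. The means were 10.8 ± 7.67 and 5.07 ± 1.32 CPM (SD, n = 3 per group), and the log2 fold change was -1.09 (SE 0.45, edgeR adjusted p = 0.121). It was called lower with the replicate block (log2 fold change -0.92, adjusted p = 0.0486, over its 16 alternatives 0.0278 to 0.435) and without ctrl replicate 2 (-1.45, adjusted p = 0.0278). Without ctrl replicate 3 the value was -0.36 (adjusted p = 0.435).

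Mmp10 had few reads, with 9, 5 and 27 expected counts in ctrl and 40, 39 and 34 in caNrf2 libraries. In CPM that was 0.254, 0.112 and 0.892 in ctrl and 1.08, 0.88 and 0.783 in caNrf2 (means 0.419 ± 0.416 and 0.915 ± 0.153, SD, n = 3 per group). Ctrl replicate 3 fell among the caNrf2 libraries, and the other ctrl libraries lay below all of them. The log2 fold change of 1.21 (SE 0.58) was not called (edgeR adjusted p = 0.171). Without ctrl replicate 3 it was 2.34 and called higher (adjusted p = 0.01, over its 15 alternatives 0.01 to 0.375). Mmp3 and Mmp10 are close paralogs, and reads that match both are divided between them by RSEM.

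Mmp13 was at 1.64, 1.52 and 5.09 CPM in ctrl and at 2.87, 2.30 and 2.81 CPM in caNrf2. Here the caNrf2 libraries lay between ctrl replicate 3 and the other ctrl libraries. The means were 2.75 ± 2.03 and 2.66 ± 0.313 CPM (SD, n = 3 each), with a log2 fold change of -0.02 (SE 0.43, edgeR adjusted p = 0.978). Without ctrl replicate 3 the value turned to 0.75 (adjusted p = 0.0561, over its 16 alternatives 0.0561 to 0.978).

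Ctrl replicate 3 was the highest ctrl library for 7 of 7 MMPs among the 10 genes, by little for Mmp19 (87.1 against 86.7 CPM), and for 0 of 3 TIMPs, while 31.1% of all tested genes were highest in that library. The TIMPs were all highest in ctrl replicate 2. All 6 tested genes of the chromosome 9 cluster (Mmp13, Mmp12, Mmp3, Mmp10, Mmp8 and Mmp27) were highest of the ctrl libraries in replicate 3. Of these, Mmp3, Mmp10 and Mmp13 are already counted in the 7. Of the 9 MMPs tested besides the 10 genes, 4 were highest there. Those were Mmp12, Mmp8 and Mmp27 of the cluster and, outside it, Mmp23 alone. The remaining 5, all outside the cluster, were not (Mmp9, Mmp15, Mmp16, Mmp17 and Mmp28). In caNrf2, replicate 2 was the lowest library for 6 of the 7 MMPs, and 32.4% of tested genes were lowest there. Ctrl replicate 3 had the smallest total, 30168400 expected counts. Timp1, Timp3 and Mmp14 were called with each of the 6 libraries left out in turn.

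**Figure D3:**
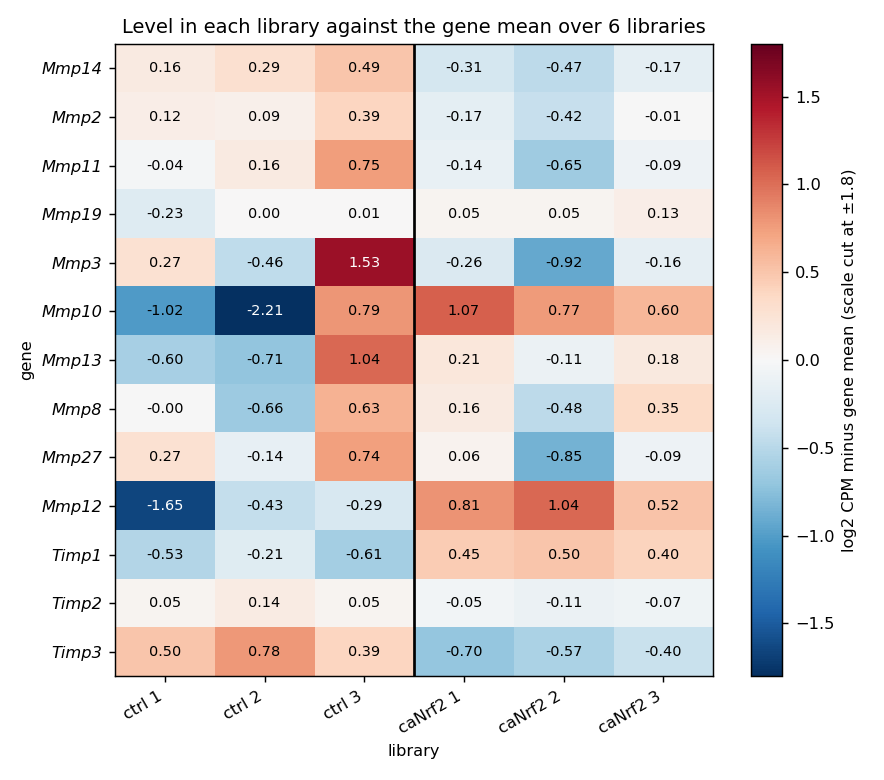
Log2 CPM of each gene minus its mean over the 6 libraries, with libraries as columns (ctrl left of the line, caNrf2 right) and genes as rows; the numbers in the cells are these differences. Ctrl replicate 3 is the highest ctrl column for every MMP shown, at 1.53 for Mmp3, 0.79 for Mmp10 and 1.04 for Mmp13, while Timp1 runs from -0.61 to -0.21 in ctrl and from 0.40 to 0.50 in caNrf2.

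**Figure D4:**
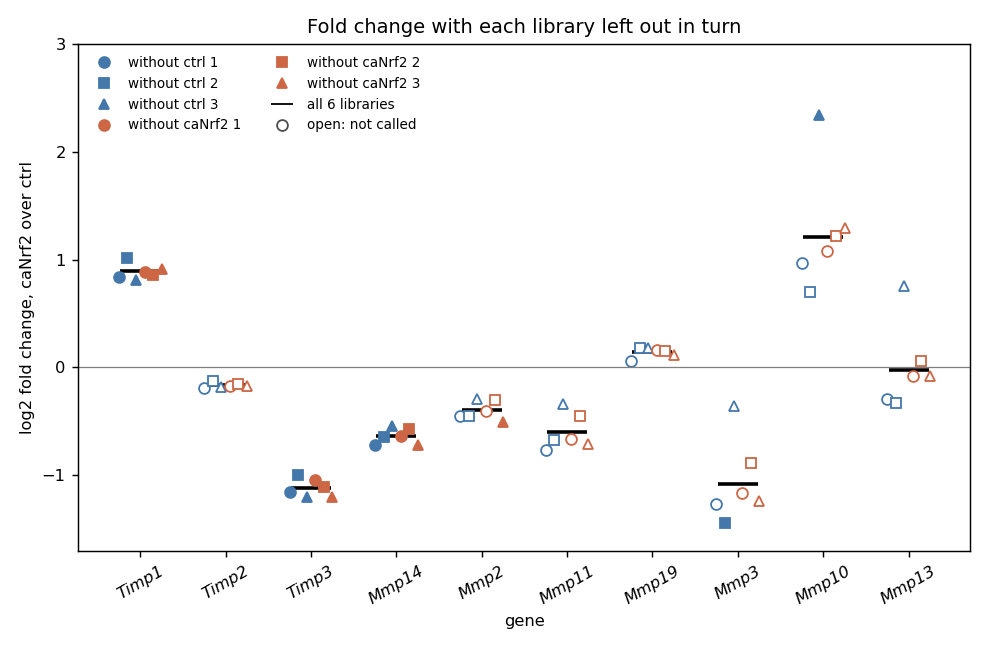
Log2 fold change (caNrf2 over ctrl) of the 10 genes with all 6 libraries (bar) and with each library left out in turn (markers; colour: group, shape: replicate, open: not called). Timp1 (0.81 to 1.02), Timp3 (-1.21 to -0.998) and Mmp14 (-0.72 to -0.54) keep filled markers throughout, whereas Mmp3 (-1.45 to -0.36), Mmp10 (0.70 to 2.34) and Mmp13 (-0.33 to 0.75) spread widely, with the highest value of each without ctrl replicate 3.

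The order of the 10 genes by TPM differed between the groups. In ctrl, Mmp14 came first (568 ± 68.9 TPM, SD, n = 3), followed by Timp2 (332 ± 9.14), Timp1 (292 ± 44.1), Timp3 (237 ± 34.2) and Mmp2 (201 ± 24.7). From Timp2 to Mmp2, the ranges of neighbours in this order overlapped, so their order is not resolved. Mmp11 (114 ± 33), Mmp19 (45.9 ± 4.44), Mmp3 (11.8 ± 8.39), Mmp13 (1.97 ± 1.46) and Mmp10 (0.487 ± 0.486) followed with no overlap between neighbours. In caNrf2, Timp1 came first (520.0 ± 34.3 TPM), ahead of Mmp14 (352 ± 40.2), Timp2 (272 ± 5.83), Mmp2 (147 ± 21.4) and Timp3 (106 ± 15.3). Mmp11 (71.0 ± 14.2), Mmp19 (48.8 ± 3.42), Mmp3 (5.28 ± 1.31), Mmp13 (1.82 ± 0.178) and Mmp10 (1.00 ± 0.121) came after, and no neighbours overlapped in caNrf2.

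The summed TPM of the 7 MMPs was 833, 900.4 and 1098 in ctrl and 599, 567 and 713 in caNrf2, with no overlap. Mmp14 and Mmp2 together made up 79.4% to 83.3% of it in ctrl and 78.7% to 80.3% in caNrf2. The ratio of summed MMP to summed TIMP TPM was 1.01, 0.937 and 1.38 in ctrl and 0.71, 0.604 and 0.782 in caNrf2. Mmp14 over Timp2 was 1.54, 1.63 and 1.97 in ctrl and 1.25, 1.19 and 1.44 in caNrf2. Both ratios were lower in each caNrf2 library than in any ctrl library. They depend on the genes put into them, and the TIMP sum counts each inhibitor alike, whichever proteases it blocks. Timp3 fell more than Mmp14 did (log2 fold changes -1.12 and -0.63), so mean Mmp14 was not lower relative to Timp3. All of these values compare RNA levels and not protein or activity.

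Of the other 17 MMP and TIMP genes, 9 were tested, with 2 called higher, 2 lower and 5 not called (median log2 fold change 0.24). Among all genes tested, 12.5% were called higher and 9.03% lower. Mmp12, the macrophage elastase, rose from 1.97, 4.599 and 5.06 CPM in ctrl to 10.9, 12.7 and 8.85 CPM in caNrf2 (2.79-fold, log2 fold change 1.48, SE 0.30, edgeR adjusted p = 0.0085). Mmp9, gelatinase B, rose from 2.85, 2.34 and 1.95 to 3.36, 6.54 and 4.61 CPM (2.03-fold, log2 fold change 1.02, SE 0.26, edgeR adjusted p = 0.0232). Mmp9 was no longer called when ctrl replicate 2 (1.01), ctrl replicate 3 (0.90), caNrf2 replicate 2 (0.73) or caNrf2 replicate 3 (1.05) was left out (adjusted p up to 0.0762). Macrophages make both enzymes, and macrophage and leukocyte markers were higher in the same libraries (161 to 194 against 23.3 to 64.3 CPM, given above), among them Ptprc (0.594 ± 0.217 and 2.67 ± 0.184 CPM) and C1qa (1.25 ± 0.523 and 6.07 ± 0.796 CPM). Their part in the rise of Mmp12 and Mmp9 was not tested.

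Mmp28, a secreted MMP of epithelia called epilysin, fell from 8.46, 8.82 and 8.26 to 3.52, 3.36 and 4.28 CPM (0.437-fold, log2 fold change -1.19, SE 0.14, edgeR adjusted p = 0.00042). Mmp23 fell from 58.6, 70.5 and 74.3 to 45.1, 31.2 and 42.8 CPM (0.585-fold, log2 fold change -0.77, SE 0.14, edgeR adjusted p = 0.0059). In both the groups did not overlap. The uncalled genes were Mmp16 (12.3 ± 1.99 and 17.3 ± 4.08 CPM in ctrl and caNrf2), Mmp17 (13.1 ± 2.73 and 15.4 ± 1.3), Mmp15 (3.78 ± 0.426 and 4.78 ± 0.325), Mmp27 (8.6 ± 2.64 and 5.77 ± 1.75) and Mmp8 (2.13 ± 0.923 and 2.08 ± 0.575). Mmp27 was called lower with the replicate block (log2 fold change -0.58, adjusted p = 0.043), and Mmp16 was called higher without a filter, with DESeq2 and without caNrf2 replicate 1 (0.49, 0.50 and 0.63). The 8 genes not tested, Mmp1a, Mmp1b, Mmp7, Mmp20, Mmp21, Mmp24, Mmp25 and Timp4, had at most 11 expected counts in any library.

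**Figure D5:**
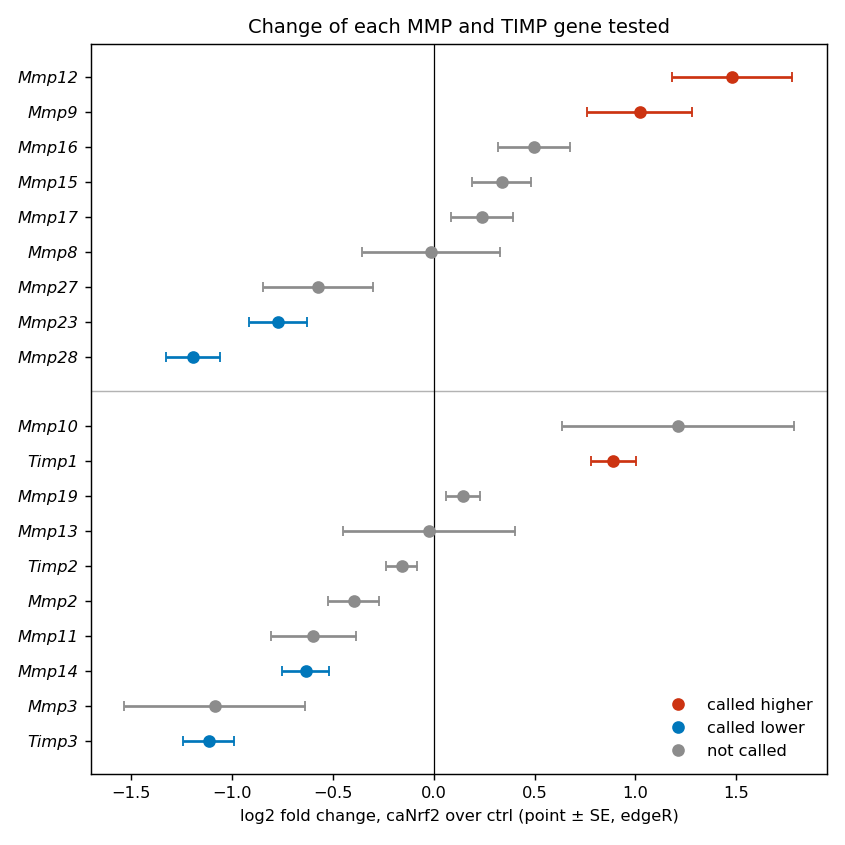
Log2 fold change (caNrf2 over ctrl) with its SE for the 10 genes (below the line) and the 9 other MMP genes tested (above it); red points were called higher, blue points lower and grey points neither. Timp1 (0.89), Mmp12 (1.48) and Mmp9 (1.02) are red, and Timp3 (-1.12), Mmp14 (-0.63), Mmp28 (-1.19) and Mmp23 (-0.77) are blue, while Mmp3, Mmp10 and Mmp13 have the widest error bars among the 10 genes.

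Genes that act on MMPs and TIMPs were read from lists of known partners. Of 20 tested genes for the activation, inhibition and clearance of MMPs, 6 were called higher and 4 lower (median log2 fold change 0.20). This count and the one for ADAM proteases below stand beside 12.5% of all genes called higher and 9.03% lower. Plaur, the receptor of urokinase, rose from 27.0 ± 6.6 to 78.0 ± 13.1 CPM (log2 fold change 1.53, SE 0.18, edgeR adjusted p = 0.000528). Plat, the tissue plasminogen activator, which starts the plasmin cascade that can activate pro-MMPs, rose from 63.5 ± 8.19 to 112 ± 10.04 CPM (log2 fold change 0.81). Pcsk6, a proprotein convertase related to furin, fell from 67.4 ± 16.1 to 21.8 ± 1.56 CPM (log2 fold change -1.62, SE 0.16, edgeR adjusted p = 0.000153). Thbs2, thrombospondin 2, which takes part in the clearance of Mmp2, fell from 1661 ± 356 to 705 ± 82.0 CPM (log2 fold change -1.24). Of 6 ADAM and ADAMTS proteases that Timp3 inhibits, 1 was called, Adamts1, which fell from 1083 ± 50.6 to 705 ± 38.2 CPM (log2 fold change -0.62, edgeR adjusted p = 0.0012), and the median of the list was -0.14.

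Of 13 AP-1, ETS-type and Runx factors known to act on MMP promoters, 3 were called higher and 1 lower (median 0.38). Of all genes tested, 12.5% were called higher and 9.03% lower. Fosl2 rose from 318 ± 22.3 to 611 ± 39.8 CPM and Fosl1 from 15.8 ± 5.96 to 51.1 ± 6.44 CPM (log2 fold changes 0.94 and 1.68, edgeR adjusted p = 0.000182 and 0.00126). Ets2 fell from 84.1 ± 17.8 to 61.0 ± 3.45 CPM (log2 fold change -0.46, edgeR adjusted p = 0.0408) and was no longer called when ctrl replicate 3 (-0.28) or any 1 of caNrf2 replicates 1 to 3 (-0.42, -0.47 and -0.51) was left out. Of the tested MMP genes with a window that holds the AP-1 letters, Mmp3, Mmp10 and Mmp13 were not called in the same fit, and Mmp12, in 1 of whose RefSeq windows they stand, was called higher (given above). Of 12 matrix proteins that MMPs cleave, 2 were higher and 6 lower (median -0.41). Nid1, nidogen of the basement membrane (803 ± 44 to 2379 ± 168 CPM), rose, and Eln, elastin (26.0 ± 0.802 to 7.84 ± 2.16 CPM), and Col1a2, of type I collagen (13544 ± 2607 to 8355 ± 836 CPM), fell.

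The genes whose log2 CPM followed Timp1 most closely over the 6 libraries, among 10831 tested genes with a mean of at least 5 CPM, were Fem1a, Nptx2 (Pearson r = 0.998 each) and Klhl26 (0.998). For Timp3 they were Slc30a5 (0.998), BC017158 (0.995) and Fzd5 (0.9945). The 6 points of each correlation fall into 2 groups by genotype, so any gene with a similar split scores high, and the values are a description. Fzd5, a Wnt receptor, had nearly the same fold change as Timp3 (log2 fold change -1.15, 23.8 ± 2.38 to 10.7 ± 1.35 CPM), whereas Slc30a5 went only from 75.4 ± 1.54 to 65.8 ± 1.24 CPM (log2 fold change -0.20).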

How the data were processed

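The series holds 6 RNA-seq libraries, grouped by their titles into 3 ctrl and 3 caNrf2. The design text gives 3 mice per group and does not tie each library to 1 mouse, so p-values measure the spread between these libraries. Per the submitters' processing notes, the authors used CASAVA 1.8, RSEM 1.2.21 and GRCm38; for the aligner, annotation release, read length and strand setting, nothing was found (not given in the sources used here). Each deposited table lists, per the file headers, TPM, FPKM and RSEM expected counts of every transcript (maximum likelihood and posterior mean). The deposited TPM values, summed per gene, were used for levels between genes, and the deposited FPKM values were not used.

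For each gene ID, the maximum likelihood counts of its transcripts were added up and rounded. edgeR 4.0.16 (R 4.3.3) was run on the whole table: filterByExpr (minimum count 10, minimum total 15), TMM, two-sided quasi-likelihood F test, Benjamini-Hochberg adjustment over all genes tested. CPM uses TMM-scaled totals, in which 1 read is worth 0.0223 to 0.0331 CPM. SEs come from the F statistic. On simulated counts (15158 genes tested) the fit called 91 of 100 genes changed 2-fold, 50 of 100 changed 1.5-fold and 12 of 14958 unchanged genes. The simulated libraries were drawn independently of each other, and all changed genes had a mean above 1 CPM. The real libraries differ in both respects, so these rates need not hold for them. DESeq2 1.42.0, limma-voom (limma 3.58.1), other scalings, filters, count columns, left-out libraries and a replicate block were alternatives.

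Deviations from the group means correlated at 0.226, 0.314 and 0.176 between ctrl and caNrf2 libraries with the same number (at most 0.091 otherwise). By the data, and not by any label, same-numbered libraries may be paired. The main fit did not use this pairing, and the fit with a replicate block was an alternative. Gene names and gene types came from GENCODE M21 (42462 IDs named) and promoter sequences from RefSeq (GRCm38.p6).

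The 10 genes and the lists were chosen with earlier results of these data known. Named genes are the 10, Nfe2l2, from each list the 2 called genes of smallest adjusted p per direction (those of the other cell type lists stand in the closing section), other MMPs at 1 CPM or more, genes overlapping the 10, and for Timp1 and Timp3 the 3 genes most alike. Of the genes this rule names, 2 are not reported here.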

Additional observations from a re-analysis of the deposited data

How the results depend on the processing

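Timp1 was called higher, and Timp3 and Mmp14 lower, under all 16 alternatives, with log2 fold changes of 0.81 to 1.02, -1.21 to -0.998 and -0.72 to -0.54. Timp2 and Mmp19 were called in none. Of the 10 genes, 2 were called lower in the main fit, 5 with the replicate block, 5 without a filter and 4 with DESeq2. The added ones were Mmp2 and Mmp11 in each, and Mmp3 with the block and without a filter. With upper-quartile factors, total counts or limma-voom, 3 were called lower, Mmp2 being added. The cause was not tested. With 1 library left out, 1 to 2 of the 10 genes were called higher (Mmp10 being added without ctrl replicate 3) and 2 to 3 lower. The genes called in all numbered 3302 in the main fit and 3218 with the replicate block. They numbered 3571 without a filter, 3550 with DESeq2 and 2206 to 3571 over all alternatives. A split of these totals by direction was made for the main fit (9.03% lower) and the block (8.67% lower) only. For every other fit, the counts among the 10 genes have no such share beside them. Whether those counts exceed the share of all genes was not tested. Mmp13 changed sign with limma-voom (log2 fold change 0.25) and with the block (0.15), and ran from -0.33 to 0.75 with 1 library left out. Mmp8 did so too (0.0722, 0.0125, and -0.29 to 0.35), as did Tmem198b with upper-quartile factors (-0.0058, and -0.0234 to 0.08 with 1 library left out). Mmp10 was not tested at a minimum count of 50. The block changed no other call among the 10 genes. Mmp10 (5 to 40 expected counts per library) and Mmp13 (58 to 154) had the fewest reads of the 10 genes, which limits their precision.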

Other observations

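Among markers of other cell types, which the text above gives as sums, single genes were called as follows (values are mean CPM with SD, ctrl then caNrf2, n = 3 per group). Col10a1, the collagen of hypertrophic cartilage, rose from 0.387 ± 0.108 to 9.07 ± 0.829, and Dmp1, a protein of mineralised matrix, had no counts in ctrl and 17, 22 and 24 in the caNrf2 libraries. Sp7, a bone cell transcription factor, fell from 3.23 ± 0.76 to 1.86 ± 0.442. Keratinocyte genes Sfn (22.8 ± 4.29 and 78.3 ± 17.9) and Krt14 (72.5 ± 18.7 and 121 ± 20.8), muscle genes Mylpf (12.6 ± 0.641 and 23.7 ± 3.27) and Acta1 (24.5 ± 3.25 and 43.9 ± 2.44), the glial gene S100b (0.659 ± 0.353 and 2.12 ± 0.0866) and the endothelial cadherin Cdh5 (2.16 ± 0.682 and 4.48 ± 0.616) rose. Abcc9, a pericyte gene, fell from 3.12 ± 0.307 to 1.33 ± 0.133. Of the fibroblast markers, Pdgfra (855 ± 62.6 and 1139 ± 52.6) and Thy1 (484 ± 42.9 and 639.96 ± 15.8) rose, and Col1a1 (17603 ± 3234 and 11967 ± 762) fell. Sp7, Krt14, Col1a1, Pdgfra and Cdh5 lost their calls with at least 1 of the 6 libraries left out (log2 fold changes there of -0.90 to -0.58, 0.59 to 0.74, -0.61 to -0.44, 0.36 to 0.37, and 0.93). Among those 6 fits, Col1a1 kept its call only without ctrl replicate 1, and Sp7 only without caNrf2 replicate 2. Krt14 lost its call without replicate 2 or replicate 3 of either group. Pdgfra lost it without ctrl replicate 2 or caNrf2 replicate 3, and Cdh5 without caNrf2 replicate 2.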
